A study of Mus musculus with 42 samples.

Results

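Transcripts of 6 chemokine receptor genes, Ccr1, Ccr2, Ccr3, Cx3cr1, Cxcr4 and Ccrl2, were followed across all 14 groups of an RNA sequencing experiment on mouse macrophages. They are the rows with these symbols among the 11160 genes of the count table, chosen by gene family, and all 6 entered the tests because the filter on low counts removed 0 genes. The macrophages had been grown from bone marrow with the growth factor M-CSF, detached, plated again and used on the next day. The cells were wild type (WT) or carried an MS4A4A knockout (KO), MS4A4A being a tetraspan-like protein in the membrane of macrophages. For each genotype there was an untreated baseline group, and there were groups given vehicle or dexamethasone (Dex, 1 µM), a steroid drug that activates the glucocorticoid receptor, for 2, 8 and 24 h. The untreated cells were taken at the baseline only, so the effect of vehicle and that of the time since the baseline cannot be told apart. All groups therefore share culture in M-CSF, detachment and replating, and each of the 14 groups held 3 libraries, 42 in all. The sources used here do not give the strain, sex and age of the mice, the way the knockout was made or the number of animals behind the cultures. Whether the 3 libraries of a group are separate cultures is not stated either, so every p-value rests on a spread between samples that may be technical only.

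Chemokine receptors are G protein-coupled receptors of the cell membrane that steer leukocytes along gradients of secreted chemokines. On cells of the monocyte and macrophage lineage, Ccr2 responds to Ccl2 and Ccl7 and brings monocytes out of the marrow and into inflamed tissue, Ccr1 responds to Ccl3 and related chemokines, and Cx3cr1 binds the membrane-tethered chemokine Cx3cl1 and marks patrolling monocytes and many tissue macrophages. Ccr3, the receptor for eotaxins, is best known from eosinophils, and Cxcr4 binds Cxcl12 and holds cells in the bone marrow. Ccrl2 is an atypical receptor that binds the chemoattractant chemerin without signalling through G proteins. Sequencing of bulk RNA measures none of these functions and no protein at the cell surface, and a smaller number of cells that express a gene cannot be told apart from less RNA per cell.

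The libraries held between 10140211 and 33528397 estimated counts, with a median of 27998690. Levels are given as CPM, counts scaled to library size. Ms4a4a, the gene targeted in the KO, lay between 81.8 and 93.5 CPM in the untreated WT libraries and between 44.3 and 49.6 CPM in the untreated KO libraries, and over the 4 conditions without Dex it was lower in KO by a log2 difference of -1.05 ± 0.11 (standard error, SE; adjusted p = 3.01e-07). The KO libraries held reads of it in every condition, from 24.2 CPM in the lowest to 802 CPM after 24 h of Dex. Dex raised Ms4a4a in KO by 1.06 ± 0.21 at 2 h, 3.76 ± 0.21 at 8 h and 2.82 ± 0.21 at 24 h (adjusted p = 0.000481, 6.39e-15 and 3.63e-12). At 24 h of Dex its mean was 765 CPM in KO and 1587 CPM in WT, and the KO libraries held more of it at 8 and 24 h of Dex than the untreated WT libraries did. The transcript was thus lower in KO but not absent, and every comparison of KO with WT rests on the labels. All 10 macrophage markers looked for were measured, and their summed level lay between 18294 and 42741 CPM. Of 9 well-known targets of the glucocorticoid receptor, 9 rose with Dex at each time, with a median log2 change of 2.81 at 24 h.

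Against vehicle of the same time, Ccr2 and Cx3cr1 were lower with Dex at 2, 8 and 24 h. Ccr3 was lower and Cxcr4 higher at 8 and 24 h, and neither passed the test at 2 h. In the fit without pairing by replicate number, Ccrl2 did not pass the test at any time and Ccr1 passed it at 2 h alone. With replicate number as a block in the model, Ccrl2 also passed at 8 h (adjusted p = 0.00312) and Ccr1 at 24 h (adjusted p = 0.0191). Changes are log2 differences of group means in edgeR's quasi-likelihood test over all 42 libraries, averaged over the genotypes unless one is named, and a gene is called at an adjusted p (Benjamini-Hochberg over all 11160 genes) below 0.05. At 2 h, 3 of the 6 receptors were called lower (Ccr1, Ccr2 and Cx3cr1) and 0 higher. Over all genes 14.5% were called at 2 h (6.41% lower and 8.14% higher). The 2 h call of Ccr2 was lost without any of 7 of the 12 libraries compared. That of Cx3cr1 was lost without any of 8 of the 12. At 8 h, 3 were called lower and 1 higher, where 52.2% of all genes were called (24.7% lower and 27.5% higher). The counts were the same at 24 h, where 53.6% of all genes were called (26.8% lower and 26.8% higher), so that a call by itself was common at these times. The median change of the 6 receptors was -0.34 at 2 h, -0.73 at 8 h and -1.15 at 24 h, beside medians over all genes of -0.00, 0.01 and 0.01. At 24 h the single values were -4.05 (Cx3cr1), -3.58 (Ccr3), -2.36 (Ccr2), 0.06 (Ccrl2), 0.25 (Ccr1) and 0.69 (Cxcr4). That median thus falls in a gap between receptors, describes none of them and does not show a fall of the whole family.

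**Figure D1:**
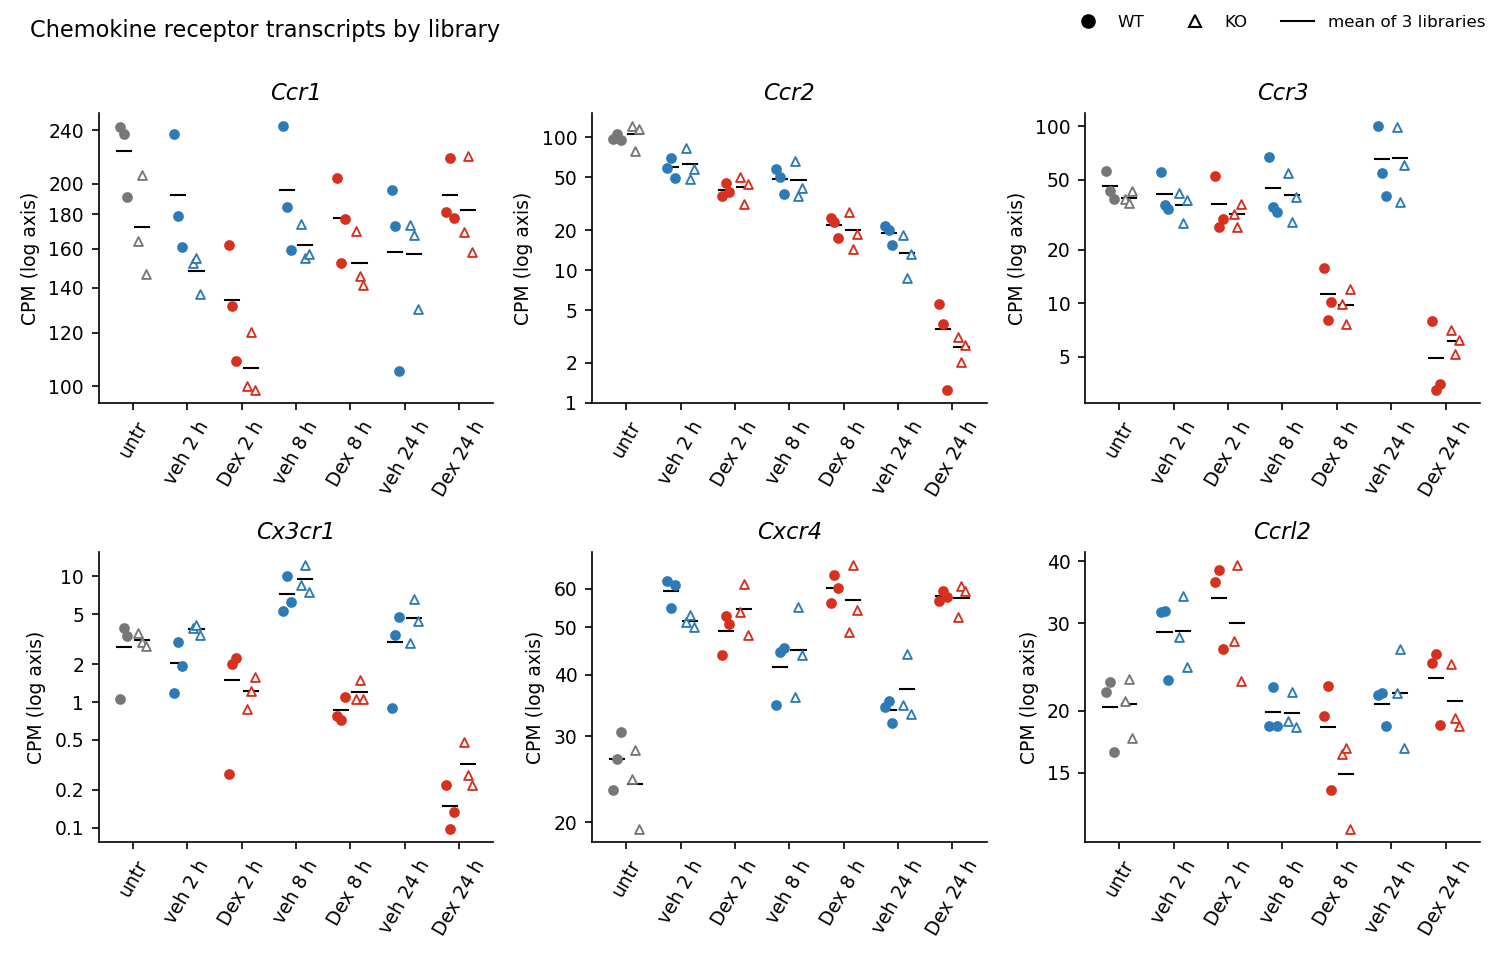
Level of each receptor transcript in each of the 42 libraries, in CPM on log axes that differ between panels. Circles are WT and triangles KO libraries, grey is untreated, blue vehicle and red Dex, and each bar is the mean of 3 libraries. At 24 h all 6 Dex libraries lie below all 6 vehicle libraries for Ccr2, Ccr3 and Cx3cr1 and above them for Cxcr4, while the ranges overlap for Ccr1 and Ccrl2. The share of all genes without such overlap was not counted.

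Ccr1, the receptor for Ccl3 and other inflammatory CC chemokines, was the most abundant of the receptors and the least variable across groups, with group means between 106 CPM (KO after 2 h of Dex) and 224 CPM (untreated WT), a ratio of 2.11. After 2 h it lay between 98.7 and 162 CPM in the 6 Dex libraries (median 115) and between 137 and 237 CPM in the 6 vehicle libraries (median 158). The ranges overlapped, but each Dex library was below the vehicle library of the same genotype and replicate number. The log2 change was -0.50 ± 0.13 (SE; adjusted p = 0.00596), a 1.41-fold lower level. At 8 h the change was -0.11 ± 0.13 (adjusted p = 0.495), and at 24 h it was 0.25 ± 0.13 (adjusted p = 0.108), with 4 of the 6 same-numbered pairs higher in Dex. The steps of the Dex effect, 0.39 ± 0.19 from 2 to 8 h and 0.36 ± 0.19 from 8 to 24 h, were not called (adjusted p = 0.115 and 0.155). They were called with the replicate block (adjusted p = 0.0243 and 0.0367, and up to 0.129 and 0.163 under the other alternatives), and the first also without WT vehicle 8 h replicate 1 (0.48, adjusted p = 0.0479). In the fit blocked on replicate number the 24 h value was 0.27 (adjusted p = 0.0191), and without WT vehicle 24 h replicate 1 it was 0.34 (adjusted p = 0.034), so whether Ccr1 was above vehicle by 24 h depends on these settings (adjusted p from 0.0191 to 0.172 over 6 alternatives). In vehicle alone Ccr1 was not called against untreated cells (-0.32 ± 0.13 at 24 h, adjusted p = 0.063). That comparison was called with the block (-0.33, adjusted p = 0.00781, and up to 0.121 under the other alternatives) and without KO untreated replicate 3 (-0.37, adjusted p = 0.0398), WT untreated replicate 3 (-0.37, adjusted p = 0.0435) or WT vehicle 24 h replicate 1 (-0.41, adjusted p = 0.0199).

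Ccr2, the receptor for Ccl2 and Ccl7, was lower in vehicle than in untreated cells at each time and lower again with Dex. Untreated WT libraries held 96.6, 105 and 96.0 CPM and untreated KO libraries 122, 78.7 and 116 CPM. After 24 h of vehicle the values were 21.5, 20.2 and 15.6 CPM in WT and 18.3, 8.77 and 13.2 CPM in KO. After 24 h of Dex they were 5.55, 3.95 and 1.25 CPM in WT and 3.12, 2.01 and 2.72 CPM in KO. The 3 conditions did not overlap in any library, with untreated cells highest and Dex lowest. In vehicle against untreated cells the log2 change was -0.74 ± 0.19 at 2 h (adjusted p = 0.00868), -1.08 ± 0.19 at 8 h (adjusted p = 0.00011) and -2.68 ± 0.20 at 24 h (adjusted p = 3.5e-12), a 6.42-fold lower level by 24 h. These 3 comparisons share the same untreated libraries.

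Dex against vehicle changed Ccr2 by -0.58 ± 0.20 at 2 h (adjusted p = 0.0404), -1.21 ± 0.20 at 8 h (adjusted p = 5.51e-06) and -2.36 ± 0.25 at 24 h (adjusted p = 4.72e-10), a 5.15-fold lower level at 24 h. At 8 h the Dex libraries lay between 14.5 and 27.3 CPM (median 21.0) and the vehicle libraries between 36.1 and 66.5 CPM (median 46.0), without overlap. The Dex effect was larger at 24 h than at 8 h by -1.16 ± 0.32 (adjusted p = 0.00594), where 25.9% of all genes were called. The step from 2 to 8 h was -0.62 ± 0.28 and was not called (adjusted p = 0.0894), but it was called with the replicate block (-0.63, adjusted p = 0.0275, and up to 0.113 under the other alternatives), without KO Dex 8 h replicate 1 (-0.78, adjusted p = 0.0362) and without KO vehicle 2 h replicate 1 (-0.76, adjusted p = 0.0411). The call at 2 h was lost with DESeq2 (adjusted p = 0.0634, the highest of 6 alternatives, of which the lowest was 0.00807) and without any of 7 of the 12 libraries compared, namely KO Dex 2 h replicates 2 and 3, KO vehicle 2 h replicate 1, WT Dex 2 h replicates 1 and 3 and WT vehicle 2 h replicates 1 and 2, with values from -0.60 to -0.46 and adjusted p from 0.0528 to 0.154. Every one of the 42 Ccr2 values is a fractional estimate (over 0.01 from a whole number), as arises where reads are shared out between similar sequences. Its level is thus less certain than those of Cxcr4 and Ccrl2, where 0 of 42 were fractional. Ccr1 and Ccr3 each had 12 fractional values and Cx3cr1 had 1.

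Ccr3, the eotaxin receptor, was not called after 2 h of Dex and then fell steeply. After 24 h the WT vehicle libraries held 101, 54.4 and 40.6 CPM and the KO vehicle libraries 99.6, 37.6 and 60.6 CPM. The WT Dex libraries held 7.92, 3.23 and 3.51 CPM and the KO Dex libraries 7.05, 5.15 and 6.18 CPM. The highest Dex library was far below the lowest vehicle library, and the replicate 1 libraries of vehicle stood above the rest in both genotypes. The log2 change with Dex was -0.19 ± 0.24 at 2 h (adjusted p = 0.788), -2.03 ± 0.25 at 8 h (adjusted p = 4.69e-08) and -3.58 ± 0.27 at 24 h (adjusted p = 7.38e-13), an 11.95-fold lower level at 24 h. Of all 11160 genes, 7 had a lower log2 change than Ccr3 at that time. The effect grew both from 2 to 8 h (-1.84 ± 0.35, adjusted p = 0.000119, where 31% of all genes were called) and from 8 to 24 h (-1.55 ± 0.37, adjusted p = 0.00189). No library left out and no alternative setting ended the calls at 8 and 24 h.

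In vehicle against untreated cells Ccr3 was higher at 24 h by 0.62 ± 0.24 (adjusted p = 0.0493), at the edge of the threshold. That call was lost with DESeq2 (adjusted p = 0.0639), in a fit of the compared groups alone (adjusted p = 0.0835, the highest of 6 alternatives, of which the lowest was 0.0037) and without any of 8 of the 12 libraries, among them KO vehicle 24 h replicate 1 (0.41, adjusted p = 0.208) and WT vehicle 24 h replicate 1 (0.39, adjusted p = 0.233), the libraries with about 100 CPM. The other 6 were KO untreated replicates 1, 2 and 3, WT untreated replicates 2 and 3 and KO vehicle 24 h replicate 3, with values from 0.57 to 0.65 and adjusted p from 0.0555 to 0.102. The vehicle libraries enter both this rise and the fall with Dex. Against the untreated libraries, which held 36.7 to 56.0 CPM, the Dex libraries at 24 h were also lower without overlap.

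Cx3cr1, the receptor for Cx3cl1, had the lowest level and the largest relative change. Untreated libraries held 1.06, 3.86 and 3.35 CPM in WT and 3.54, 2.98 and 2.81 CPM in KO. After 8 h of vehicle the values were 5.27, 9.97 and 6.25 CPM in WT and 8.52, 12.3 and 7.56 CPM in KO, so all 6 vehicle libraries stood above all 6 untreated libraries. After 8 h of Dex they were 0.778, 0.721 and 1.10 CPM in WT and 1.07, 1.499 and 1.06 CPM in KO. In vehicle Cx3cr1 was higher than in untreated cells at 8 h by 1.52 ± 0.32 (adjusted p = 0.00096, 2.86-fold), while the values at 2 h (-0.05 ± 0.34, adjusted p = 0.961) and 24 h (0.37 ± 0.33, adjusted p = 0.442) were not called. The Dex libraries showed no such rise and lay below 5 of the 6 untreated libraries, while WT untreated replicate 1, at 1.06 CPM, fell among them.

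With Dex against vehicle Cx3cr1 changed by -1.04 ± 0.36 at 2 h (adjusted p = 0.0434), -3.01 ± 0.35 at 8 h (adjusted p = 9.48e-09, 8.04-fold lower) and -4.05 ± 0.55 at 24 h (adjusted p = 4.13e-09, 16.6-fold lower). At 24 h 3 of the 11160 genes had a lower log2 change. The vehicle peak enters the 8 h value. The effect grew from 2 to 8 h by -1.97 ± 0.50 (adjusted p = 0.00267), and the step from 8 to 24 h was -1.04 ± 0.65 and not called (adjusted p = 0.232). At 24 h the Dex values rested on few reads, with 6, 3 and 3 counts in the WT libraries and 13, 7 and 5 in the KO libraries, against 29 to 187 in vehicle. The libraries did not overlap at 8 or 24 h, whereas at 2 h they did (0.268 to 2.22 CPM with Dex, 1.19 to 4.09 with vehicle). The call at 2 h was lost in a fit of the compared groups alone (adjusted p = 0.091, the highest of 5 alternatives, of which the lowest was 0.00794) and without any of 8 of the 12 libraries (-1.07 to -0.77, adjusted p from 0.0531 to 0.175): KO Dex 2 h replicates 1 and 2, KO vehicle 2 h replicates 1, 2 and 3, WT Dex 2 h replicate 1 and WT vehicle 2 h replicates 2 and 3. WT replicate 1 had the lowest Cx3cr1 of its 3 libraries in untreated cells, in vehicle at each time and after 2 h of Dex. The annotated span of Cx3cr1 overlaps other genes on both strands, and the sources used here do not tell if reads were counted by strand.

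Cxcr4, the Cxcl12 receptor, was the one receptor called higher with Dex than with vehicle. In vehicle it was higher than in untreated cells, going from 23.3, 26.9 and 30.6 CPM in untreated WT and 24.5, 28.0 and 19.4 CPM in untreated KO to 62.1, 54.8 and 60.9 CPM in WT and 51.2, 53.1 and 50.1 CPM in KO after 2 h. All vehicle libraries at 2 h were above all untreated libraries, and the log2 change was 1.12 ± 0.10 (adjusted p = 1.31e-09, 2.18-fold). It was 0.77 ± 0.10 at 8 h (adjusted p = 4.01e-07) and 0.49 ± 0.10 at 24 h (adjusted p = 0.000236).

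After 24 h Cxcr4 stood at 56.5, 59.3 and 57.7 CPM in WT and 52.5, 60.8 and 59.3 CPM in KO with Dex, and at 34.3, 35.4 and 31.9 CPM in WT and 34.8, 44.1 and 33.3 CPM in KO with vehicle. The lowest Dex library was above the highest vehicle library. At 2, 8 and 24 h the means with Dex were 49.1, 60.1 and 57.8 CPM in WT and 54.4, 56.7 and 57.5 CPM in KO. With vehicle they were 59.3, 41.5 and 33.9 CPM in WT and 51.5, 44.9 and 37.4 CPM in KO. The falling vehicle level thus enters the values at 8 and 24 h. Changes over time within Dex or within vehicle were not tested. Dex against vehicle gave -0.10 ± 0.10 at 2 h (adjusted p = 0.686), 0.44 ± 0.10 at 8 h (adjusted p = 0.000276) and 0.69 ± 0.10 at 24 h (adjusted p = 2.67e-07, 1.62-fold), and 682 genes had a higher log2 change at 24 h. At 8 h the libraries overlapped, although each of the 6 Dex libraries was above its same-numbered vehicle library. The step from 2 to 8 h was 0.53 ± 0.14 (adjusted p = 0.00284) and that from 8 to 24 h was 0.26 ± 0.14 (adjusted p = 0.174). Within KO alone the 8 h value was 0.34 ± 0.14 with an adjusted p of 0.0493, and that call was lost under 4 alternative settings (DESeq2, median-ratio scaling, a minimum mean of 5 CPM and the compared groups alone; adjusted p from 0.0554 to 0.148, against 0.0124 at the lowest of all 6). It was also lost without KO Dex 8 h replicate 2 (0.20, adjusted p = 0.316), KO vehicle 8 h replicate 1 (0.20, adjusted p = 0.308), KO Dex 8 h replicate 3 (0.37, adjusted p = 0.0602) or KO vehicle 8 h replicate 3 (0.32, adjusted p = 0.114), and it was 0.51 (adjusted p = 0.00589) without KO vehicle 8 h replicate 2.

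Ccrl2, the chemerin-binding atypical receptor, was not called with Dex at any time. The change was 0.14 ± 0.14 at 2 h (adjusted p = 0.668), -0.25 ± 0.14 at 8 h (adjusted p = 0.142) and 0.06 ± 0.14 at 24 h (adjusted p = 0.755), with a 95% interval of -0.23 to 0.35 at 24 h. The replicate numbers paired the libraries at 8 h in both genotypes, and with them as a block the 8 h value was -0.27 and called (adjusted p = 0.00312), as was that within KO (-0.42, adjusted p = 0.00179). The value within KO was also called in a fit of the compared groups alone (-0.43, adjusted p = 0.0325). The other alternatives gave up to 0.142 averaged and 0.113 in KO. The steps of the Dex effect were called with the block alone among the 6 alternatives, -0.40 from 2 to 8 h (adjusted p = 0.00264, and up to 0.135) and 0.33 from 8 to 24 h (adjusted p = 0.0168, and up to 0.283). In vehicle Ccrl2 was called higher than in untreated cells at 2 h alone. At 2 h the WT libraries held 31.6, 31.7 and 23.1 CPM and the KO libraries 28.2, 34.1 and 24.5 CPM, against 21.8, 22.9 and 16.5 CPM in untreated WT and 21.0, 23.2 and 17.6 CPM in untreated KO. The ranges overlapped at their edges, but all 6 same-numbered pairs were higher in vehicle, and the log2 change was 0.49 ± 0.14 (adjusted p = 0.0171). That call was lost without KO untreated replicate 3 (0.43, adjusted p = 0.0534), KO vehicle 2 h replicate 2 (0.41, adjusted p = 0.066) or WT untreated replicate 3 (0.43, adjusted p = 0.055). At 8 and 24 h Ccrl2 stood at -0.06 ± 0.14 and 0.04 ± 0.14 against untreated cells (adjusted p = 0.833 and 0.866).

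**Figure D2:**
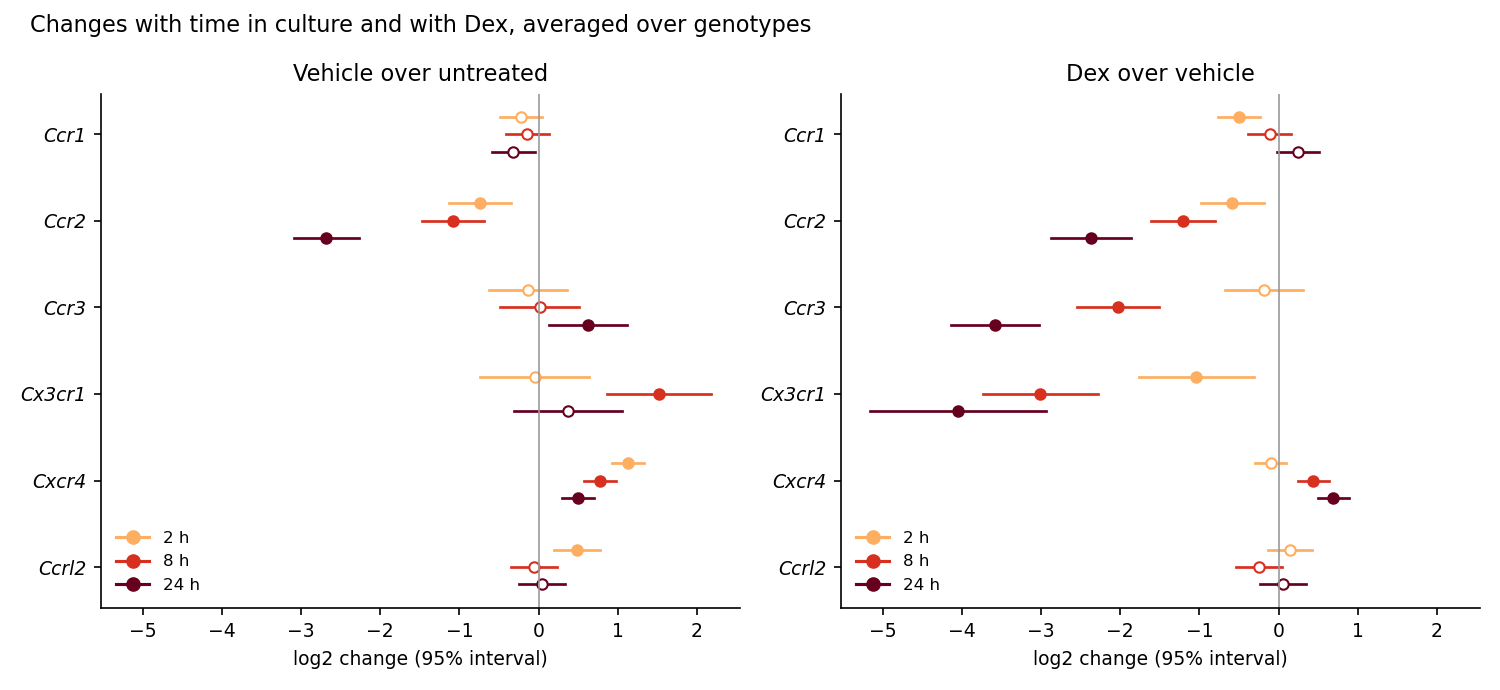
Log2 change of each receptor in vehicle against untreated cells (left) and in Dex against vehicle (right) at 2, 8 and 24 h, averaged over the genotypes, with 95% intervals as lines. Filled points were called at an adjusted p below 0.05 and open points were not. Ccr2 lies to the left of 0 in both panels, Cx3cr1 lies to the left of 0 in the right panel at each time and Ccr3 is called there at 8 and 24 h, and Cxcr4 lies to the right of 0 in vehicle at each time and in Dex at 8 and 24 h.

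In vehicle against untreated cells the counts of receptors called were 2 higher and 1 lower at each of the 3 times, where 13.8, 18.2 and 31% of all genes were called at 2, 8 and 24 h. The shares called higher were 7.03, 8.49 and 15.6%, and those called lower 6.72, 9.66 and 15.4%. The receptors thus moved in different directions between untreated and vehicle cells. At 24 h Ccr2 was lower and Cxcr4 and Ccr3 were higher.

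Levels of different genes were compared per kilobase of annotated exon. In untreated WT cells Ccr1 stood at 79.0 CPM per kilobase, followed by Cxcr4 at 14.9, Ccr2 at 14.7 and Ccr3 at 14.01, then Ccrl2 at 7.85 and Cx3cr1 at 0.612. After 24 h of Dex the WT order was Ccr1 (68.0), Cxcr4 (32.0), Ccrl2 (8.94), Ccr3 (1.49), Ccr2 (0.530) and Cx3cr1 (0.0333). Ccr2 and Ccr3, which had been near Cxcr4 before treatment, were below Ccrl2 after it. For Ccr2 this already held after 24 h of vehicle, with 2.82 against 7.94 for Ccrl2 in WT and 1.99 against 8.36 in KO. Ccr3 was then above Ccrl2, at 19.9 in WT and 20.2 in KO. The KO libraries gave the same order after Dex, with 64.4, 31.8, 8.06, 1.87, 0.387 and 0.0709 CPM per kilobase. Exon length was taken from the whole gene model, so these levels depend on which isoforms the cells used.

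**Figure D3:**
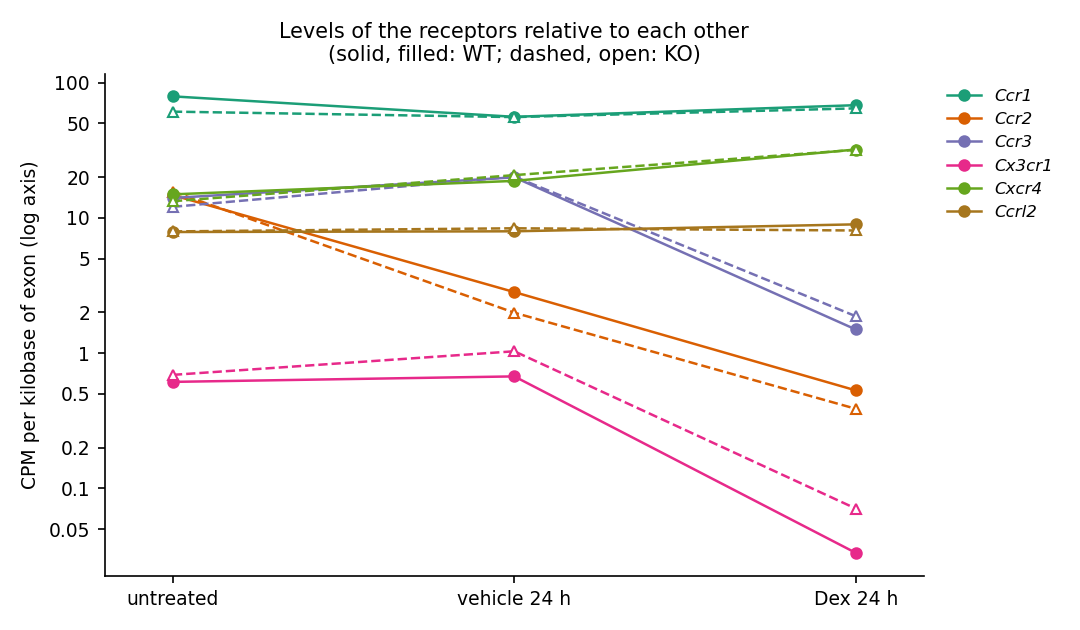
Mean level of each receptor transcript per kilobase of annotated exon in untreated cells and after 24 h of vehicle or Dex, on a log axis, with 3 libraries per mean. Solid lines and filled circles are WT, dashed lines and open triangles are KO. Ccr1 stays highest, Cxcr4 ends second, and Ccr3, Ccr2 and Cx3cr1 end lowest after Dex.

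Ordered by level, the 14 groups of each receptor had gaps between neighbouring ranges at 0 to 3 of 13 steps. Such gaps were not counted over all genes, so these numbers do not tell whether the receptors are unusual. For Ccr2 the ranges of neighbouring groups in that order failed to overlap at 3 of 13 steps. The upper ones were WT untreated to KO vehicle 2 h and WT Dex 2 h to WT Dex 8 h. The last was KO vehicle 24 h to WT Dex 24 h. Each gap concerns those neighbouring groups alone. KO untreated, ranked above WT untreated, still overlapped KO vehicle 2 h (lowest library 78.7 CPM against highest 82.7 CPM). Ccr3 had 2 such gaps, KO Dex 2 h to WT Dex 8 h and KO Dex 8 h to KO Dex 24 h. WT Dex 24 h reached 7.92 CPM, above the lowest KO Dex 8 h library at 7.59 CPM. Cx3cr1 had 2, WT Dex 8 h to KO Dex 24 h and, narrowly, KO Dex 24 h to WT Dex 24 h, where the counts are fewest. The lowest WT Dex 2 h library, at 0.268 CPM, lay below the upper of these gaps. Cxcr4 had 1, above the untreated groups, and Ccr1 and Ccrl2 had 0. Highest and lowest group means differed 63.1-fold for Cx3cr1, 40.4-fold for Ccr2, 13.5-fold for Ccr3, 2.51-fold for Cxcr4 and 2.26-fold for Ccrl2.

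Neither the level of any receptor without Dex nor its response to Dex was called different between KO and WT. Over the 4 conditions without Dex, 0 of the 6 receptors were called, where 0.224% of all genes were called (25 genes, and 933 at an unadjusted p below 0.05). Ccr1 was lower in KO by -0.26 ± 0.09 (adjusted p = 0.368), in 11 of the 12 same-numbered pairs, and Cx3cr1 was higher by 0.54 ± 0.23 (adjusted p = 0.489), in 9 of 12. The other 4 lay between -0.14 (Ccr3) and 0.02 (Ccrl2), and the 95% interval of Cxcr4 ran from -0.17 to 0.12. Within single conditions 0 of the 6 receptors were called in any of the 7, where 0% (untreated, 24 h of vehicle, 2 and 8 h of Dex), 0.00896% (2 and 8 h of vehicle) and 0.0448% (24 h of Dex) of all genes were called.

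For the difference of the Dex effect, KO minus WT, edgeR called 0 of the 11160 genes (0%) at each time, with 986, 133 and 564 genes at an unadjusted p below 0.05 at 2, 8 and 24 h. At 24 h the difference was -0.07 ± 0.26 for Ccr1, 0.04 ± 0.49 for Ccr2 (95% interval -0.97 to 1.05), 0.31 ± 0.54 for Ccr3 (-0.79 to 1.42), -0.15 ± 0.19 for Cxcr4 (-0.55 to 0.24) and -0.23 ± 0.28 for Ccrl2. For Cx3cr1 it was 0.43 with an interval of -1.79 to 2.65, so a difference of several fold could not be detected at this depth. The change of Ccr3 with Dex against vehicle at 24 h was -3.74 ± 0.39 in WT and -3.42 ± 0.38 in KO. That of Ccr2 was -2.39 ± 0.34 and -2.34 ± 0.36, and that of Cxcr4 was 0.77 ± 0.14 and 0.62 ± 0.14. Within each genotype these were called at 8 and at 24 h, as was Cx3cr1, giving 4 of 6 receptors in each, where 37 and 38.5% of all genes were called at 8 h and 41.7 and 38.3% at 24 h in WT and KO. At 2 h 0 receptors were called within WT (9.02% of all genes) and 1, Cx3cr1, within KO (-1.60 ± 0.50, adjusted p = 0.0321; 10.4% of all genes). The 2 h call within KO was lost without KO Dex 2 h replicate 1 (-1.43, adjusted p = 0.15), KO Dex 2 h replicate 2 (-1.59, adjusted p = 0.102), KO vehicle 2 h replicate 1 (-1.58, adjusted p = 0.0704) or KO vehicle 2 h replicate 2 (-1.53, adjusted p = 0.091). Ccr1 at 2 h was called within KO with the block (-0.48, adjusted p = 0.0159) and in a fit of the compared groups alone (-0.48, adjusted p = 0.0158), with up to 0.112 under the other alternatives. Within WT it was called with DESeq2 (-0.52, adjusted p = 0.0467), with the block (-0.52, adjusted p = 0.00832) and without WT Dex 2 h replicate 1 (-0.68, adjusted p = 0.0377), with up to 0.118 under the other alternatives. Ccr2 at 2 h was called within WT in a fit of the compared groups alone (-0.58, adjusted p = 0.0334, and up to 0.311 under the other alternatives).

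**Figure D4:**
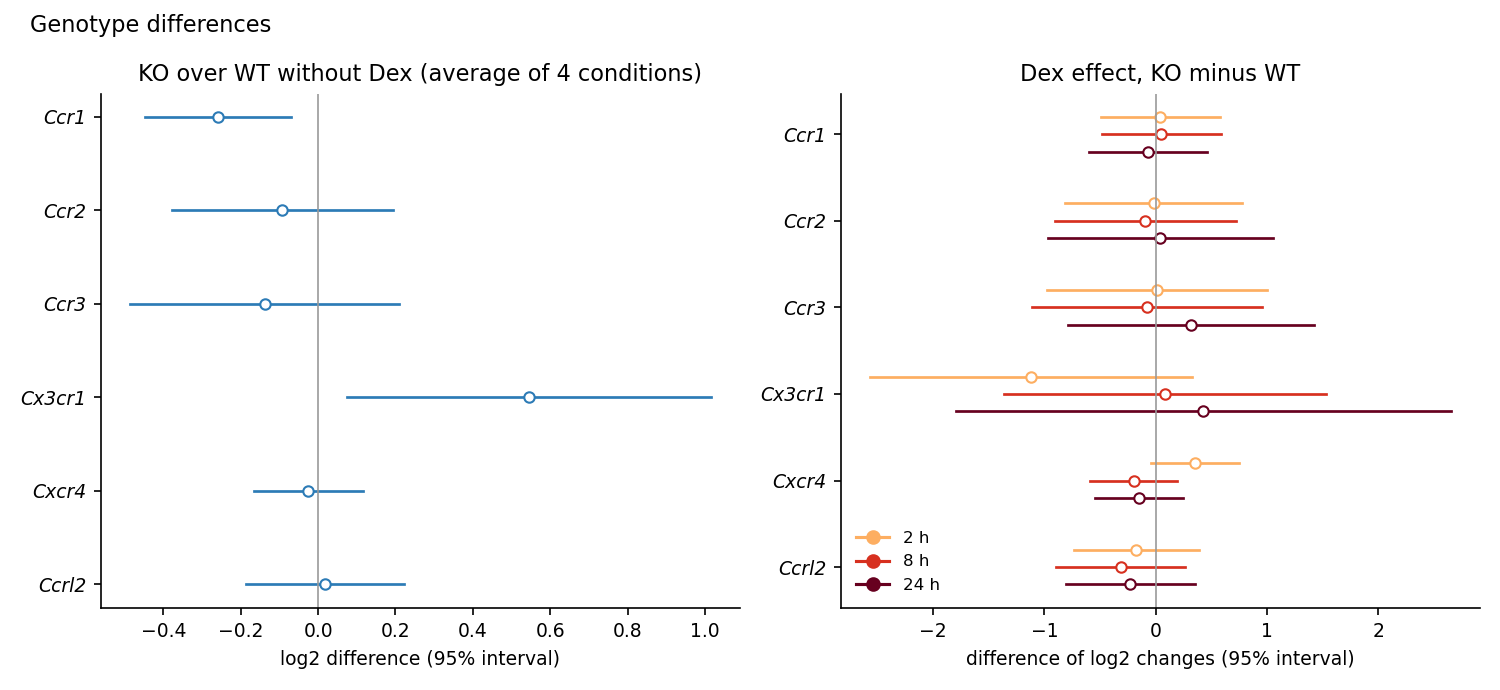
Log2 difference between KO and WT for each receptor, with 95% intervals as lines and open points for values that were not called. The left panel averages the 4 conditions without Dex, and the right panel gives the Dex effect in KO minus that in WT at 2, 8 and 24 h. Every point is open, and the intervals are widest for Cx3cr1.

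The receptors sit in the genome (GRCm38, GENCODE release M21 positions) mostly on chromosome 9. Ccr1 (chr9:123962124-123968692, minus strand), Ccr3 (chr9:124021972-124031689, plus strand) and Ccr2 (chr9:124101950-124113557, plus strand) form a cluster, Cx3cr1 (chr9:119901616-120069879, minus strand) and Ccrl2 (chr9:111054486-111057519, minus strand) lie elsewhere on it, and Cxcr4 lies on chromosome 1 (chr1:128588199-128592293, minus strand). Within the cluster, Ccr3 and Ccr2 fell by 24 h of Dex while Ccr1 was not called, and Ccr1l1, a receptor-like gene that starts 9.7 kb from Ccr1, changed by -2.59 ± 0.39 at 24 h of Dex (adjusted p = 1.34e-07) from a level of about 1 CPM. Of 26 genes of the table examined that start within 500 kb of a receptor, 1 was called higher and 10 lower at 24 h, with a median of -0.11, where 26.8% of all genes were called in each direction. Of the 5 neighbours of Cxcr4, itself called higher, 4 were called lower. Among them were Zranb3, a DNA repair helicase (-2.75 ± 0.09, adjusted p = 1.72e-21), and Mcm6, a subunit of the replicative helicase (-1.51 ± 0.06, adjusted p = 2.8e-19).

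Promoter windows of RefSeq (GRCm38.p6, 250 bases before to 50 after a start site) were found for all 6 receptors, 8 windows in all, and were searched on both strands for 3 motifs. These were the palindrome of the glucocorticoid receptor (GNACA and TGTNC with 3 bases of any kind between them), the single arm AGAACA, and the AP-1 site TGANTCA. The palindrome was in 0 of the 8 windows and in 0.209% of the 8592 promoters searched, the single arm in 12.2% and the AP-1 site in 4.89%. The letters of the arm can also lie inside a palindrome match. Windows of Cxcr4, Ccr3 and Ccrl2 held matches. Those of Cxcr4 and of Ccr3, the receptor that fell most among those with ample counts, are shown. They were picked with the changes of the receptors known, and each held 1 match, in capitals. These windows are printed 5′ to 3′ on the strand of the gene. They are the 250 bases before the start site, at chr1:128592300-128592549 (minus strand) for Cxcr4 and chr9:124021721-124021970 (plus strand) for Ccr3.
Cxcr4: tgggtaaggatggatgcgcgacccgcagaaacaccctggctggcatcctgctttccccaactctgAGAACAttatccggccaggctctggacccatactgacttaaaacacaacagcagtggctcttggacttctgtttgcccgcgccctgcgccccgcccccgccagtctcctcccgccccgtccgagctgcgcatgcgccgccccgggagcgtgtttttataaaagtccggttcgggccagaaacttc
Ccr3: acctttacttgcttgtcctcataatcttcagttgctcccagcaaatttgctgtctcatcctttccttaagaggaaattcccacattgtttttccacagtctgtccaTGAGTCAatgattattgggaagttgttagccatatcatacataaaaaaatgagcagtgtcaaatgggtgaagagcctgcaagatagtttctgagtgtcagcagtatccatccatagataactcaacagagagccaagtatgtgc

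The AGAACA of Cxcr4 starts 185 bases before the start site, and the AP-1 match of Ccr3 starts 144 bases before it. Of the 3 windows of Ccrl2, 2 overlapping ones held AGAACA on the opposite strand. None of the 3 motifs was in the windows of Ccr1, Ccr2 or Cx3cr1. A match is a description of letters in a window of 300 bases, and binding was not measured.

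Among 23 other chemoattractant receptors listed, 9 were in the table. At 24 h of Dex 4 were called higher and 3 lower (median 0.09, against 0.01 over all genes), where 26.8% of all genes were called in each direction. Ccr7, the receptor that guides dendritic cells to lymph nodes, lay at 2.46 ± 0.69 CPM (SD, n = 3) in untreated WT cells, 0.373 ± 0.289 after 24 h of vehicle and 0.0148 ± 0.0257 after 24 h of Dex. In KO it lay at 1.53 ± 0.28 CPM, 0.457 ± 0.341 CPM and 0 CPM in all 3 libraries, and over both genotypes it was called lower with Dex at 24 h (adjusted p = 5.22e-05). C3ar1, the receptor for complement C3a, fell at all 3 times and by -0.40 ± 0.06 at 24 h (adjusted p = 4.16e-07). Cmklr1, the signalling receptor for chemerin, rose by 1.83 ± 0.33 (adjusted p = 1e-05) to 2.18 ± 0.46 CPM in WT, and the formyl peptide receptors Fpr1 and Fpr2 rose by 0.98 ± 0.22 and 1.35 ± 0.28 (adjusted p = 0.000309 and 8.86e-05). Cxcr3, an interferon-linked receptor, was lower at 8 h (-0.54 ± 0.09, adjusted p = 2.37e-06) and higher at 24 h (0.30 ± 0.08, adjusted p = 0.00264).

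Of 15 ligands of the receptors, 13 were measured, and 4 were called lower at 2 h, 4 lower and 2 higher at 8 h, and 5 lower and 3 higher at 24 h (median -0.15 at 24 h), where 14.5, 52.2 and 53.6% of all genes were called. Ccl2 and Ccl7, ligands of Ccr2, fell by 24 h of Dex along with their receptor, by -2.19 ± 0.32 and -2.28 ± 0.36 (adjusted p = 6.98e-07 and 3.53e-06). In WT cells Ccl2 went from 241 ± 58.7 CPM (SD, n = 3) untreated to 62.7 ± 52.0 in vehicle and 12.3 ± 5.18 with Dex. Ccl4 and Ccl3, ligands of the Ccr1 group, changed by -2.26 ± 0.18 and -0.74 ± 0.13 (adjusted p = 2e-12 and 2.01e-05), while Ccr1 was not called at that time. In the other direction, Ccl24, an eotaxin and ligand of Ccr3, rose by 1.99 ± 0.32 (adjusted p = 1.39e-06) to 2.72 ± 0.17 CPM in WT, and Ccl6 rose by 1.37 ± 0.20 (adjusted p = 1.11e-06). Cx3cl1, the ligand of Cx3cr1, was called at 8 h alone (1.03 ± 0.25, adjusted p = 0.000828), and Cxcl12, the ligand of Cxcr4, gave 0.61 ± 0.39 at 24 h (adjusted p = 0.192).

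Of 37 genes listed for signalling below the receptors and for desensitisation, 34 were measured, with 4 called higher and 1 lower at 2 h, 9 higher and 10 lower at 8 h, and 8 higher and 13 lower at 24 h (median -0.07). Rgs2 and Rgs18, which shorten G protein signalling, fell by -1.29 ± 0.09 and -0.97 ± 0.09 at 24 h (adjusted p = 4.87e-14 and 3.09e-11), and Rgs18 had been higher at 2 h (0.29 ± 0.09, adjusted p = 0.0189). Gng2, a G protein gamma subunit, rose by 0.59 ± 0.05 (adjusted p = 2.4e-12) and Grk6, a kinase that phosphorylates active receptors, by 0.58 ± 0.05 (adjusted p = 3.62e-11). Of 11 genes for sorting and shedding of receptors and ligands, 5 were called higher and 2 lower at 24 h (median 0.06). Itch, a ubiquitin ligase that directs Cxcr4 to lysosomes, rose by 0.38 ± 0.07 (adjusted p = 2.09e-05), Rab7, of late endosomes, by 0.24 ± 0.04 (adjusted p = 2.01e-06) and Dnm2, a dynamin of endocytosis, by 0.24 ± 0.05 (adjusted p = 0.000272). Adam17, a sheddase, fell by -0.33 ± 0.06 (adjusted p = 4.1e-05). All these counts stand beside 14.5, 52.2 and 53.6% of all genes called at 2, 8 and 24 h.

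Genes whose group means most resembled each receptor were found by Pearson correlation over the 14 groups, which share libraries and depth between the genes, among genes with a mean of at least 5 CPM. Ccr3 ran closest to Stap1 (r = 0.993), Cd300ld (0.988) and Ccdc88a (0.981). Stap1, an adaptor of tyrosine kinase signalling, went from 115 ± 8.33 CPM (SD, n = 6) untreated to 148 ± 22.2 in vehicle and 47.2 ± 3.67 with Dex at 24 h, a smaller fall than that of Ccr3. Ccr2 ran closest to Icam2 (0.984), Plekhn1 (0.979) and Tmsb10 (0.977), and Tmsb10, an actin-binding thymosin, stood at 731 ± 105, 240 ± 51.3 and 94.4 ± 21.9 CPM in the same conditions. For Cx3cr1 the nearest were Itgav (0.970), Numb (0.944) and Cep78 (0.943), for Cxcr4 Klhl21 (0.939), Smim3 (0.934) and Paf1 (0.931), and for Ccrl2 Wdr43 (0.929), Creb5 (0.919) and Cnbp (0.913). Ccr1 had no close match, with Leng9, Akirin2 and Coq10a between 0.796 and 0.808. Between the receptors, r over the same groups was 0.77 for Ccr3 with Cx3cr1, 0.72 for Ccr2 with Ccr3 and 0.60 for Ccr2 with Cx3cr1. Cxcr4 had negative values with these 3, from -0.61 to -0.49.

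Markers of monocytes moved with the Dex response. Of 13 listed, 12 were measured, and their summed level lay between 190 and 282 CPM in all libraries without Dex, between 344 and 432 CPM after 8 h of Dex and between 1017 and 1270 CPM after 24 h. At 24 h 6 were called higher and 4 lower, where 26.8% of all genes were called in each direction. F13a1, a coagulation factor subunit, changed by 4.05 ± 0.17 (adjusted p = 2.28e-18), Chil3, a chitinase-like protein, by 3.74 ± 0.27 (adjusted p = 6e-13), and Ly6c2, a surface marker of classical monocytes, by 3.42 ± 0.14 (adjusted p = 3.52e-20). Ccr2, a receptor of the same monocytes, went the opposite way. Nr4a1 and Treml4, genes of the patrolling monocytes that carry Cx3cr1, were among the 4 called lower, by -0.70 ± 0.17 (adjusted p = 0.000869) and -2.22 ± 0.18 (adjusted p = 1.17e-12). Nr4a1 was named after its value was seen, and the remaining listed markers are not given one by one. The named genes therefore do not describe either kind of monocyte as a set. The part of these markers in the receptor changes was not tested.

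For Ccr3, markers of cells that carry it were examined. Of 7 eosinophil markers 1 was in the table, Siglecf, at 0.448 to 2.68 CPM, and it changed by -0.81 ± 0.25 at 24 h of Dex (adjusted p = 0.00684). Of 7 mast cell and basophil markers 1 was in the table, Kit, at 3.22 to 15.1 CPM without Dex and 0.482 to 13.3 CPM with it, and it changed by -1.71 ± 0.29 at 24 h (adjusted p = 6.19e-06). The other defining markers of both lists were not in the table. For dendritic cells, T, NK and B cells and neutrophils, 4 of 8, 2 of 13 and 5 of 9 markers were measured, with summed levels of at most 17.3, 25.2 and 188 CPM. At 24 h the dendritic cell markers summed to 11.1 to 17.3 CPM in vehicle and 5.11 to 7.23 CPM with Dex, with 2 of 4 called lower and 1 higher (median -0.90). Itgax, an integrin subunit, changed by -2.16 ± 0.21 and Flt3, a growth factor receptor of progenitors, by 4.17 ± 0.56 (adjusted p = 1.66e-10 and 1.4e-09). The T, NK and B cell markers summed to 9.74 to 16.4 CPM in vehicle and 2.24 to 6.98 CPM with Dex, and both of those measured, Cd4 (-1.74 ± 0.23) and Cd79b (-1.53 ± 0.24), were called lower (adjusted p = 1.14e-07 and 1.08e-06). The neutrophil markers overlapped between vehicle and Dex at 24 h, and 0 of 5 were called. Stromal markers, 5 of 9 measured, lay between 3.30 and 25.8 CPM without Dex and between 2.23 and 64.9 CPM with it, and 4 were called higher at 24 h. All these marker counts stand beside 26.8% of all genes called in each direction at 24 h. The part of these markers in the receptor changes was not tested.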

How the data were processed

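RNA sequencing of 42 libraries in 14 groups of 3 was used, each library placed by its title. Values are expected counts (estimated counts that need not be whole) for 11160 genes, as deposited by the authors. The tools named per the submitters' processing notes are Salmon, HISAT2 and fastp, and the build is GRCm38. The sources used here give no version, role, annotation or gene filter. The lowest gene total was 256. Per-sample columns left unused numbered 0.

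Counts were rounded and fitted with edgeR 4.0.16 (R 4.3.3) in one quasi-likelihood model of 14 group means, with TMM factors from 0.950 to 1.04 and Benjamini-Hochberg adjustment over all genes, called below 0.05. SE and 95% intervals come from that fit and CPM are TMM-scaled. Groups of 3 replicates were compared as WT, KO, vehicle and Dex contrasts. The procedure was also run on simulated data with few changed genes, at 24 h of Dex alone, and independent libraries. That run therefore does not check the scaling or the p-values where many genes change or same-numbered libraries are paired. The members and gene lists were chosen with earlier results of these data known. Genes named are the 6 receptors, Ms4a4a, 3 like genes per receptor (mean of at least 5 CPM), up to 4 genes per list with the lowest p at 24 h of Dex, neighbours within 500 kb and the most abundant markers. Ccl3, Ccl7, Cx3cl1, Cxcl12, Cxcr3, Fpr1, Fpr2 and Nr4a1 fall outside that rule and were chosen after their values were seen. One gene is not reported here.

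No 2 replicates of a group agreed within sampling noise (chi-square over genes). Same-numbered libraries deviated together (every correlation over 0.1) in 9 of 13 two-group comparisons, with lowest correlations from -0.23 to 0.35. The reported values and p-values come from the fit without these pairs, unless the block is named. The block was an alternative only, and it was applied to every comparison. The alternatives tried were a replicate block, the compared groups alone, leaving out each library in turn, median-ratio scaling, a minimum mean of 5 CPM, no filter, and DESeq2 1.42.0.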

Additional observations from a re-analysis of the deposited data

How the results depend on the processing

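The filter on low counts removed 0 genes, so the fit without it is the same fit and tests nothing. Of 108 receptor values, 107 kept their direction and their side of the threshold with median-ratio scaling, 104 with DESeq2, 102 in fits of the compared groups alone and 89 of 90 with a mean of at least 5 CPM, a filter that removes Cx3cr1. The calls lost or gained there are given with their genes. With the replicate block, where the numbers paired the libraries in 9 of 13 comparisons, 53 instead of 42 values were called and 0 calls were lost. One value changed its sign with the block, Ccr3 in vehicle at 8 h against untreated cells (-0.046). The counts of receptors called moved by over 1.5 times as follows. The block gave 4 instead of 2 for the Dex effect at 24 h against 8 h, and 6 instead of 3 at 8 h against 2 h. It also gave 2 instead of 1 for Dex at 2 h in KO, and 1 instead of 0 in WT. Fits of the compared groups gave 2 in KO and 1 in WT, DESeq2 gave 1 in WT, and the minimum of 5 CPM gave 0 in KO at 2 h and 2 instead of 4 in KO at 8 h. With 1 library left out, the count for Dex at 2 h lay between 1 and 3 averaged, 0 and 1 in KO, and 0 and 1 in WT. Smaller moves, by 1 receptor, came with the block (5 instead of 4 for Dex at 8 and 24 h and at 8 h in KO, 4 instead of 3 in vehicle at 24 h). DESeq2 and the compared groups alone each gave 2 instead of 3 for Dex at 2 h and for vehicle at 24 h. DESeq2 and median-ratio scaling gave 3 instead of 4 for Dex at 8 h in KO. Without 1 library, the counts ran from 4 to 5 for Dex at 24 h, 3 to 4 at 8 h in KO and for the step from 2 to 8 h, and 2 to 3 for vehicle at 2 and at 24 h. The minimum of 5 CPM lowered by 1 the other counts that held Cx3cr1.
Leaving out 1 library turned the sign of 24 values, 0 of them called in the fit over all libraries, with these ranges. They were Ccr1 (-0.14 to 0.21), Ccr2 (-0.17 to 0.23) and Ccr3 (-0.24 to 0.38) for the Dex effect in KO minus WT at 2 h. For the Dex effect in KO minus WT at 24 h they were Ccr1 (-0.25 to 0.15), Ccr2 (-0.33 to 0.48), Ccr3 (-0.15 to 0.86) and Cx3cr1 (-0.044 to 0.89). They were Ccr1 (-0.14 to 0.18), Ccr2 (-0.38 to 0.21), Ccr3 (-0.48 to 0.24) and Cx3cr1 (-0.24 to 0.32) for the Dex effect in KO minus WT at 8 h. For Dex against vehicle at 8 h in WT they were Ccr1 (-0.27 to 0.049) and Ccrl2 (-0.27 to 0.079). They were Ccr3 (-0.55 to 0.063) and Cx3cr1 (-0.87 to 0.045) for Dex against vehicle at 2 h in WT. For vehicle 8 h against untreated cells they were Ccr3 (-0.19 to 0.11). They were Ccrl2 (-0.20 to 0.22) and Cxcr4 (-0.014 to 0.16) for Dex against vehicle at 2 h in KO. For Dex against vehicle at 24 h, averaged they were Ccrl2 (-0.022 to 0.14). They were Ccrl2 (-0.21 to 0.11) for Dex against vehicle at 24 h in KO. For KO against WT without Dex, averaged they were Ccrl2 (-0.026 to 0.057) and Cxcr4 (-0.069 to 0.0089). They were Ccrl2 (-0.045 to 0.12) for vehicle 24 h against untreated cells. For vehicle 2 h against untreated cells they were Cx3cr1 (-0.28 to 0.18). Depth limits Cx3cr1 most, with as few as 3 counts in a library at 24 h of Dex.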
